A study of Mus musculus with 11 samples.

Results

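The cytosolic ribosomal protein genes were taken as all entries of the count table whose Ensembl identifier maps to a symbol of the form Rpl or Rps with a number, with a final letter or l and a digit allowed, together with Rplp0, Rplp1, Rplp2 and Rpsa. Rps6k kinases and entries named as pseudogenes with -ps were left out, and a summed count of at least 110 over the 11 libraries was required. Of 86 entries with such a symbol 80 met the minimum, out of 49585 entries in the table. By symbol, 48 were assigned to the large subunit (60S, the Rpl and Rplp genes) and 32 to the small subunit (40S, the Rps genes). These numbers include pseudogenes and paralogs. Rpl32l and Rps4l are annotated as pseudogenes and the other 78 as protein-coding.

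Every ribosome carries one copy of nearly every ribosomal protein, the acidic stalk proteins Rplp1 and Rplp2 excepted, so cells make these proteins in matched amounts. Their mRNAs are short and abundant, and most begin with a run of pyrimidines at the cap, the TOP motif, through which mTOR and the RNA-binding protein LARP1 control their translation and storage. Haematopoietic stem cells are known for a low rate of protein synthesis, and in humans the loss of one copy of certain ribosomal protein genes causes Diamond-Blackfan anaemia, a failure of red cell production in the marrow.

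All libraries came from bone marrow stem cells of C57BL/6 mice, sorted as Lin- c-Kit+ Sca-1+ CD48- CD150+ and then by surface CD41, an integrin chain of megakaryocytes and platelets that is coded by Itga2b. Control mice had received control rabbit serum and the others were taken 24 h after platelet depletion. Each library held RNA of 1000 cells pooled from 3 mice, and the groups had 3 (control CD41-), 2 (control CD41+), 3 (depleted CD41-) and 3 libraries (depleted CD41+), described as biological replicates. The comparisons asked whether ribosomal protein mRNA differs with CD41, with platelet loss, and with both in combination.

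The shallowest library (depleted CD41+ replicate 1) held 0.974 M gene counts and the deepest (depleted CD41- replicate 1) 9.95 M. Itga2b stood at 37.5 to 98.5 CPM (counts scaled by library size and TMM factors) in the 6 CD41- libraries and at 169.8 to 424.6 CPM in the 5 CD41+ libraries. Control CD41+ replicate 2 stood apart, with 7.61% of its counts in 12 neutrophil marker genes against 0.437 to 5.14% elsewhere. The summed level of 10 stem cell markers was 2439 to 3238 CPM in control CD41-, 1599 and 2059 in control CD41+, 1582 to 2140 in depleted CD41- and 681 to 1572 CPM in depleted CD41+ libraries. In such bulk samples fewer cells of a type and less RNA per cell cannot be told apart.

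The bases around the annotated transcription start are shown first for some genes whose mRNA was lower or higher after depletion. The pyrimidine run that marks the family lies there. Of the genes shown, Rpl22l1 and Rpl7l1 did not pass the depletion test given below. Of the 80 genes 59 had an entry in RefSeq's promoter table for GRCm38.p6. Each line holds 30 bases, with the start at the base after the first 15, read 5′ to 3′ on the gene's strand, and capitals mark runs of at least 5 pyrimidines (C or T).
Rpl13 (chr8:123102335-123102364, plus strand): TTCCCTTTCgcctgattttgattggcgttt
Rps27 (chr3:90213634-90213663, minus strand): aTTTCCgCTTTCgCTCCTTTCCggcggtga
Rps9 (chr7:3704026-3704055, plus strand): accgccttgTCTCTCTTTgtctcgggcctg
Rps7 (chr12:28635939-28635968, minus strand): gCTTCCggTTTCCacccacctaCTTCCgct
Rps19 (chr7:24884577-24884606, plus strand): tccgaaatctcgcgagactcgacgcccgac
Rplp0 (chr5:115559452-115559481, plus strand): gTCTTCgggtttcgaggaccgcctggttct
Rps27l (chr9:66946071-66946100, plus strand): ccaCTCCTCCCCgccgCCTCTatcccggaa
Rpl22l1 (chr3:28805493-28805522, plus strand): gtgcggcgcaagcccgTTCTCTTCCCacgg
Rpl7l1 (chr17:46782642-46782671, minus strand): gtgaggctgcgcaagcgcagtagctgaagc

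Rps27, whose mRNA is among the most abundant of the family, carries a pyrimidine run across its start, and so does its paralog Rps27l close by its own start. Rps19 and Rpl7l1 have no run of 5 pyrimidines in these windows. Rps3, which passed as lower after depletion, and Rpl22 have none in the same window either and are not shown. The window of Rps19 lies downstream of the gene's start in GENCODE M21 (24884371), and windows at other starts are not shown. A C followed by at least 4 pyrimidines and beginning within 5 bases of the start was present in 45.7% of the 70 promoter entries of the 59 genes, against 18.3% of all 32851 entries. Exactly at the start base the shares were 20.0% and 2.51%.

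The 100 bases before the start are shown for the pair Rps27 and Rps27l, which moved in opposite directions after depletion, with capitals for a match to AAGATGGC on either strand.
Rps27 (chr3:90213649-90213748, minus strand): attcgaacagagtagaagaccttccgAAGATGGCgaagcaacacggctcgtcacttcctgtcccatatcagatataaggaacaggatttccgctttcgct
Rps27l (chr9:66945986-66946085, plus strand): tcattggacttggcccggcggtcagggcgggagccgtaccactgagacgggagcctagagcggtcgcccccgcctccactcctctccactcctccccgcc

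The motif AAGATGGC, with its reverse complement GCCATCTT, was found in 11.4% of the entries of ribosomal protein genes and in 2.75% of all entries, in windows of 300 bases. CCGGAA, with its reverse complement TTCCGG, was found in 48.6% and 14.9%, and TATAAA, with its reverse complement TTTATA, in 11.4% and 13.6%. These letters are matches and not shown binding sites. The 29 genes with a pyrimidine run within 5 bases of the start had a median log2 change of -0.25 after depletion, averaged over both CD41 fractions, and the 30 genes without one -0.38, which is a description without a test. For this split, and for the bases shown, the first promoter entry of each gene was used.

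The 80 genes together held between 5.46 and 9.97% of the counts of a library. Control CD41- libraries stood at 7.80, 9.97 and 7.52% (8.43 ± 1.34%, SD, n = 3). Control CD41+ libraries stood at 8.11 and 5.72% (6.92 ± 1.68%, n = 2), the widest spread of the 4 groups. Depleted CD41- libraries stood close together at 6.17, 6.18 and 6.24% (6.20 ± 0.0387%, n = 3), and depleted CD41+ libraries at 6.56, 5.46 and 5.64% (5.89 ± 0.588%, n = 3). All 3 depleted CD41- libraries were below all 3 control CD41- libraries. The depleted and control CD41+ libraries overlapped, with control CD41+ replicate 2 at 5.72% inside the depleted range. With mitochondrial and neutrophil marker genes taken out of the total, control CD41+ replicates 1 and 2 stood at 8.51 and 6.30%. The depleted CD41+ libraries then stood at 7.05, 5.66 and 6.16%, and the part of neutrophil transcripts was not tested. A 95% Wilson interval, which takes reads as independent, was 6.51 to 6.61% for the shallowest library (depleted CD41+ replicate 1). Reads amplified by PCR are not independent molecules, so this interval is too narrow.

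**Figure D1:**
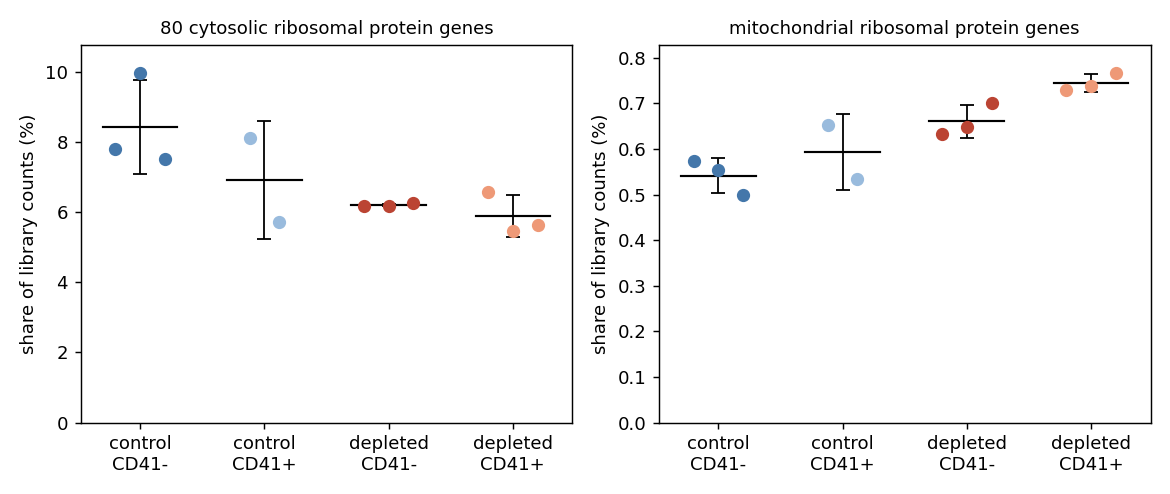
Share of library counts in percent (vertical axis) held by the 80 cytosolic ribosomal protein genes (left) and by mitochondrial ribosomal protein genes (right) in the 4 groups; points are libraries, horizontal lines group means and error bars 1 SD. Depleted CD41- libraries lie between 6.17 and 6.24% on the left, below the control CD41- libraries at 7.52 to 9.97%, while the mitochondrial share runs the other way.

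Levels between genes were compared per length, as CPM per kb of one annotated transcript per gene. They ranged from 6.58 to 3948 CPM per kb with a median of 866, and 49 of 80 genes lay within 2-fold of the median. The highest means over the 11 libraries were those of Rpl32 (3948 CPM per kb), Rps14 (3786), Rps27 (3722), Rplp1 (2778) and Rplp0 (2600). Rplp0 and Rplp1 form the stalk that recruits translation factors to the ribosome, and Rps14 lies in the platform of the small subunit. The lowest were Rpl32l (6.58 CPM per kb) and Rps4l (19.0), both annotated pseudogenes, then Rpl13a (64.0), the paralog Rpl7l1 (96.3) and Rps15a (148.0). The value of Rps15a rests on an annotated transcript of 5179 bases, the longest of the set.

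Near the minimum count the members were Rpl32l with 114 counts in all, Rps4l with 851, Rpl13a with 3147, Rpl29 with 8258 and Rpl35a with 10168, against a median of 29789 counts. Just below it were Rpl6l with 42 counts, Rpl39l with 24, Rpl3l with 11, Rpl24 with 7 and Rps12l1 with 6, and Rpl10l had 0. Rpl3l is known from muscle and Rpl10l and Rpl39l from male germ cells, whereas Rpl24 codes for a protein of every large subunit. In GENCODE M21, 47.0% of the exon bases of Rpl24 also belong to a second entry on the same strand, Gm28037, which was listed at 0 counts. For Rpl13a, likewise a standard protein of the large subunit, 35.4% of the exon bases belong also to Gm45713, listed at 0. How the authors' counting treated shared bases was not tested.

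**Figure D2:**
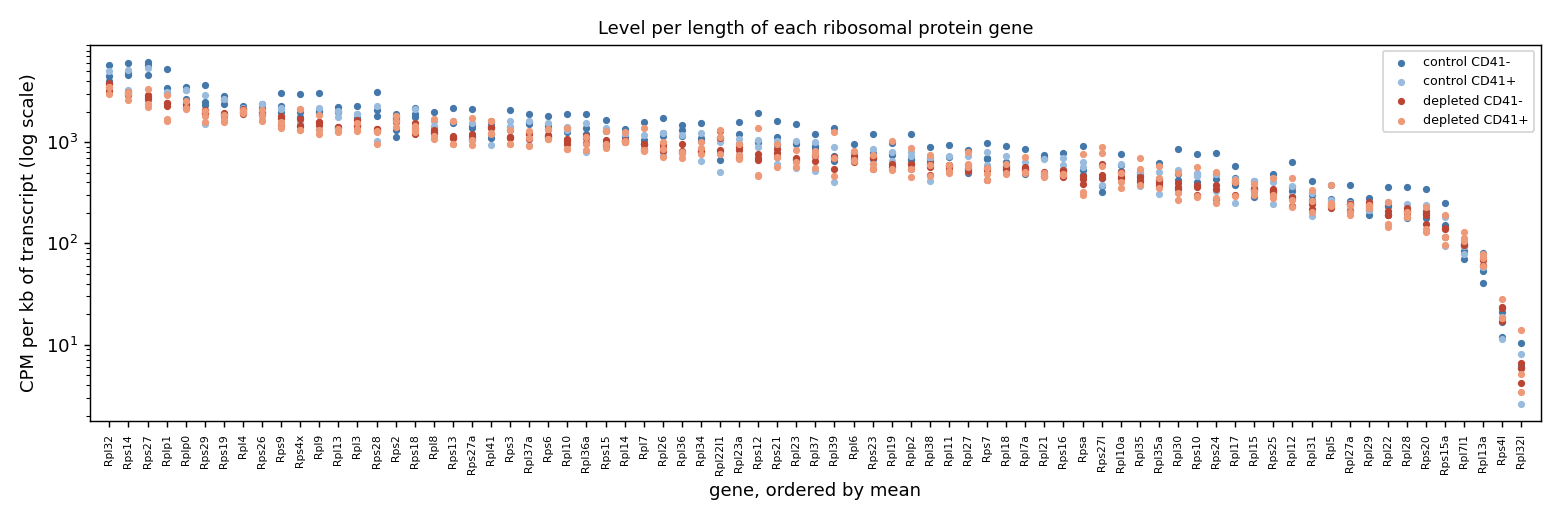
CPM per kb of transcript (vertical axis, log scale) of 75 of the 80 genes (horizontal axis, ordered by mean) in each of the 11 libraries, coloured by group. Rpl32 has the highest mean at 3948 CPM per kb, and Rps4l and Rpl32l have the lowest at 19.0 and 6.58.

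Most of the genes moved together from library to library. The SD of log2 CPM over the 11 libraries had a median of 0.33 for the ribosomal protein genes and 0.50 for all 13448 genes tested. Spearman correlations between pairs of them had a median of 0.63 over the 11 libraries, and 68 of 80 genes correlated above 0.5 with the mean of the others. These points share libraries and depth, so the values are descriptions. Against the common course, with negative correlations, stood 5 genes: Rpl7l1 (-0.65) and Rps27l (-0.24) most clearly, then Rpl29, Rps4l and Rpl41.

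The widest spread was that of Rps12 (SD 0.62), a small-subunit protein, which ran from 269 CPM (depleted CD41+ replicate 2) to 1126 CPM (control CD41- replicate 2). Rpl32l (SD 0.57, at 1.03 to 5.56 CPM), Rps27 (0.55), Rpl39 (0.54) and Rps28 (0.52) followed. Among the narrowest were Rpl4 (SD 0.08), at 2902 to 3519 CPM and Rpl14 (0.15). Rpl4, a protein that lines the exit tunnel of the large subunit, was thus nearly level in all 4 groups while others of the same subunit varied several times more on the log2 scale.

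The genes outside the family whose CPM ranked most like the share of counts held by the family, over 11 libraries, were Gm14303 and Tceal1 (Spearman 0.95 each), Dync2li1, the pseudogene entry Rps10-ps2 and Plag1 (0.93 each).

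**Figure D3:**
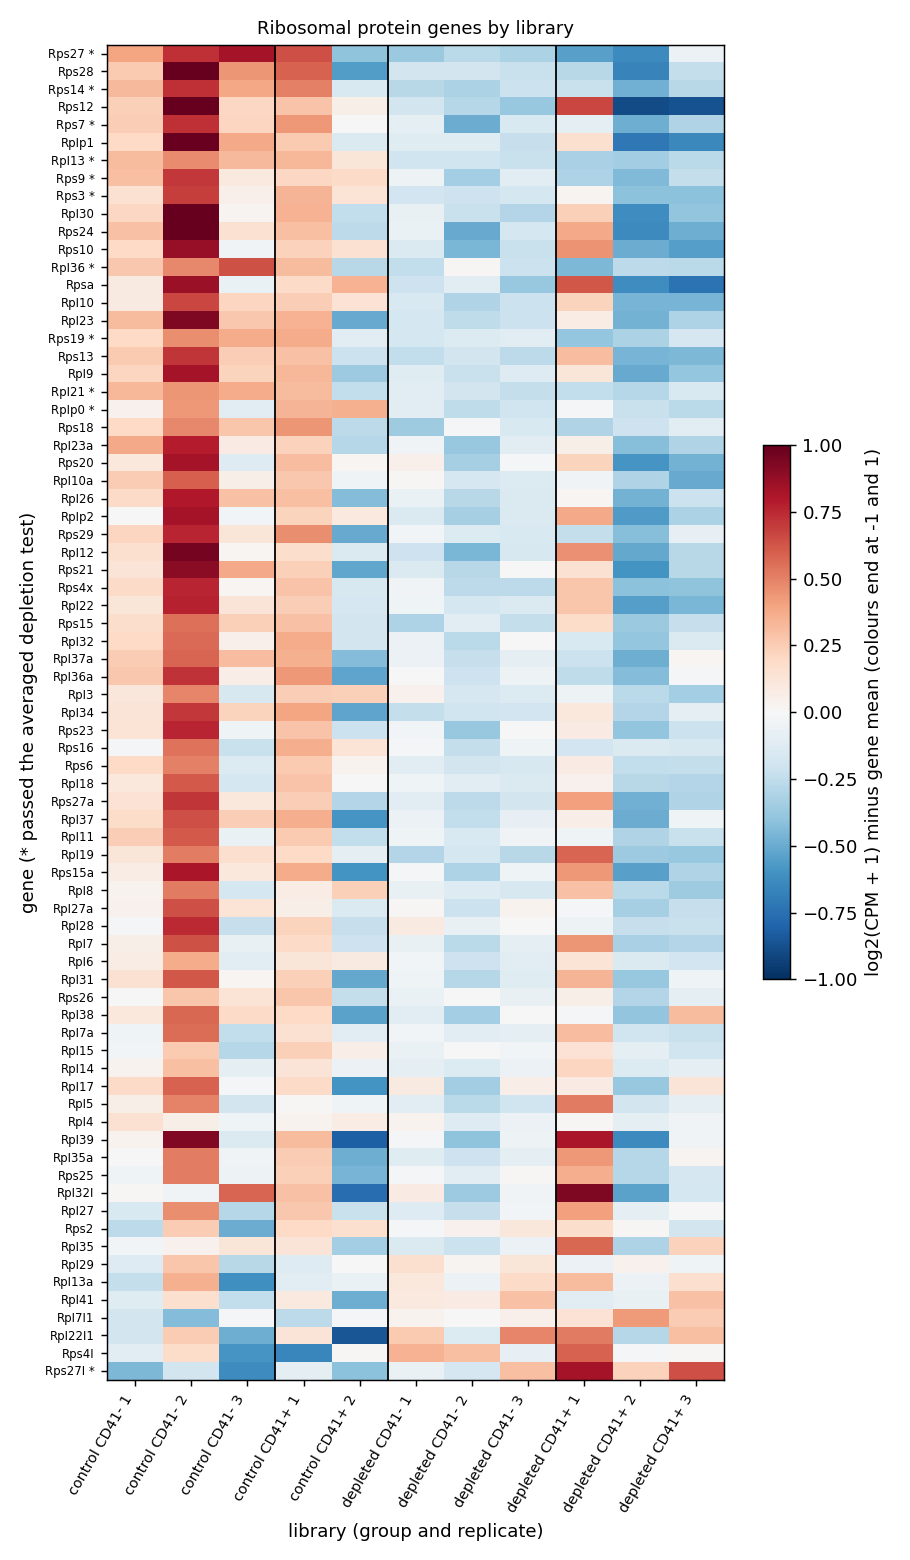
Each row is one of 75 of the 80 genes, ordered by its averaged depletion change, and each column a library; colour gives log2(CPM + 1) minus the gene's mean, red above and blue below, and stars mark genes that passed the averaged depletion test. The colours end at -1 and 1; control CD41- replicate 2 is red for most genes, control CD41+ replicate 2 is blue for many and the lowest rows, with Rps27l and Rpl7l1, run the other way.

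After platelet depletion ribosomal protein mRNA was mostly lower relative to the other mRNA of a library. Such scaled counts do not give amounts per cell. Averaged over the CD41- and CD41+ fractions, 11 of the 80 genes fell, Rps27l rose and 68 did not pass, in edgeR's quasi-likelihood test with Benjamini-Hochberg adjustment over all 13448 genes. That is 13.8% lower and 1.25% higher, against 2.73% of all genes called lower and 3.60% called higher (6.33% in either direction). The median log2 change of the 80 genes was -0.34 and that of all genes -0.01, and 71 of 80 values were negative. The small subunit had 6 of 32 genes lower and Rps27l higher (median -0.38), and the large subunit 5 of 48 lower (median -0.29).

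Rpl13 (ENSMUSG00000000740, GRCm38 chromosome 8, 123102350 to 123105244), whose human counterpart is mutated in a skeletal dysplasia, measured 1563, 1738 and 1570 CPM in control CD41- and 1580 and 1367 in control CD41+ libraries. After depletion it measured 1094, 1094 and 1078 CPM in CD41- and 1003, 986 and 1039 in CD41+ libraries. All 6 depleted libraries lay below all 5 control libraries, and the fall was alike in both fractions. Its averaged log2 change was -0.56 ± 0.10 (edgeR adjusted p = 0.00435), and it passed with any one of the 11 libraries left out.

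Rps27, a zinc-finger protein of the small subunit, fell most, by 0.79 ± 0.17 on the log2 scale (edgeR adjusted p = 0.0179). It measured 1577, 1991 and 2141 CPM in control CD41-, 1874 and 906 in control CD41+, 929, 997 and 965 in depleted CD41-, and 822, 770 and 1154 CPM in depleted CD41+ libraries. Control CD41+ replicate 2 was as low as the depleted libraries, and the other 4 control libraries were above all 6. When control CD41+ replicate 1 was dropped its change was -0.47 (adjusted p = 0.130, against 0.00420 to 0.130 over the 11 omissions), and it was then not the largest fall.

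Rps14, the small-subunit gene whose loss of one copy is part of the 5q- syndrome in humans, measured 2723, 3604 and 2847 CPM in control CD41- and 3084 and 1956 in control CD41+ libraries, against 1799, 1749 and 1876 in depleted CD41- and 1871, 1563 and 1793 CPM in depleted CD41+ libraries. The groups did not overlap over all libraries. Its averaged log2 change was -0.65 ± 0.13 (edgeR adjusted p = 0.0116). Rps14 passed in 10 of the 11 fits that each left out 1 library, and its change was -0.45 without control CD41+ replicate 1. Rps7, a small-subunit protein that can bind MDM2, fell by 0.59 ± 0.14 (adjusted p = 0.0247), from 568 to 938 CPM in controls to 401 to 532 CPM.

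Rps9, a small-subunit protein near the mRNA channel, fell by 0.54 on the log2 scale (edgeR adjusted p = 0.0202), from 1492 to 2277 CPM in controls to 1028 to 1345 CPM. Rps3, at the mRNA entry of the small subunit, fell by 0.50 (adjusted p = 0.0421), and Rps19, the gene most often mutated in Diamond-Blackfan anaemia, by 0.46 (adjusted p = 0.0285). In the large subunit Rpl36 fell by 0.49 (adjusted p = 0.0363), Rpl21 by 0.42 (adjusted p = 0.0408) and Rplp0, the base of the stalk, by 0.42 (adjusted p = 0.0455). Rpl21 and Rplp0 passed in 2 and Rpl36 in 4 of the 11 fits that each left out 1 library, and Rps3 in 2, Rps19 in 4, Rps7 in 6 and Rps9 in 8. When control CD41+ replicate 1 was dropped, none of these 7 passed, and the changes of Rpl21 and Rpl36 were -0.25 and -0.32. Without a library overlap, all depleted below all control, were 5 genes (Rpl13, Rps14, Rps3, Rps7 and Rps9), 6.25% of the family against 1.92% of all genes.

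The number that passed depended on single libraries. The full fit called 12 of the 80, and 851 of all 13448 genes. Leaving out the shallow depleted CD41+ replicate 1 brought the 12 up to 23, with 1060 of 13348 genes called. It was 4 without the third depleted CD41- library (370 of 13362 genes). It was 6 without the second or the third depleted CD41+ library (694 of 13367 and 454 of 13377). It was 7 without the second control CD41- library (727 of 13341) or the first or second depleted CD41- library (404 of 13396 and 661 of 13351). Without control CD41+ replicate 1 the median log2 change was -0.18. The median stayed negative throughout, between -0.44 and -0.18. The summed stem cell markers given above were lower in depleted than in control libraries within each fraction, and their part in the result was not tested.

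Rps27l (ENSMUSG00000036781, chromosome 9, 66946086 to 66949516), a paralog of Rps27 that is a p53 target in human cells, went the other way. It measured 183, 219 and 160 CPM in control CD41-, 233 and 187 in control CD41+, 238, 221 and 307 in depleted CD41-, and 444, 292 and 389 CPM in depleted CD41+ libraries. Within each fraction the depleted libraries were above the controls, and the 2 highest values were those of depleted CD41+ replicates 1 and 3. The averaged log2 change was 0.64 ± 0.15 (edgeR adjusted p = 0.0220), and it did not pass without control CD41+ replicate 1 (0.0525) or replicate 2 (0.0975), depleted CD41- replicate 3 (0.0643) or depleted CD41+ replicate 3 (0.0537).

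Rpl7l1, a paralog of Rpl7, was the one gene with all depleted above all control libraries (183 to 246 CPM against 249 to 334, 1.25% of the family against 2.03% of all genes), but its averaged change of 0.33 ± 0.12 did not pass (edgeR adjusted p = 0.113). The 2 fractions come from separate libraries, and 61 of 80 genes had a negative change in both (76.2% against 33.0% of all genes). A positive change in both was seen for 7 genes: Rps27l, Rpl22l1, Rpl7l1, Rps4l, Rpl41, Rpl13a and Rpl29. The first 4 of these are paralogs or copies of standard members, and the other 3 are standard large-subunit proteins, with averaged log2 changes of 0.22 for Rpl41, 0.21 for Rpl13a and 0.09 for Rpl29, none of which passed.

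**Figure D4:**
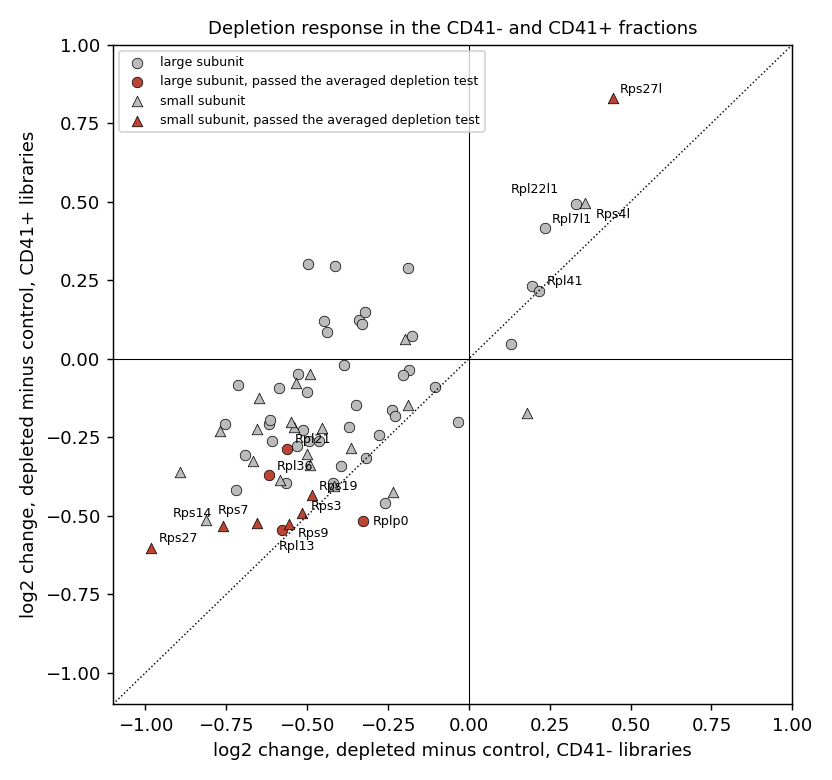
Log2 change, depleted minus control, in CD41- libraries (horizontal axis) and CD41+ libraries (vertical axis) for 75 of the 80 genes; circles are large-subunit and triangles small-subunit genes, red marks genes that passed the averaged test and the dotted line marks equal change. Of these, 57 lie in the lower left, and Rps27l, Rpl22l1, Rps4l and Rpl7l1 lie at the upper right.

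Within the CD41- fraction 4 of 80 genes fell and 0 rose, against 0.892% of all genes called lower and 2.30% called higher (3.19% in either direction), and the median log2 change was -0.45, with 72 of 80 values negative. Among the 4 were Rps27 (-0.98 ± 0.24, edgeR adjusted p = 0.0368), Rps14 (-0.76 ± 0.18, adjusted p = 0.0322) and Rpl13 (-0.58 ± 0.13, adjusted p = 0.0251). All 3 depleted libraries lay below all 3 controls for 48 genes, 60% of the family against 12.1% of all genes, and above them for 2 (Rpl7l1 and Rps27l), against 12.9%. Dropping control CD41- replicate 2 or 3 left 0 calls, against 319 of 13341 and 215 of 13304 genes. Dropping depleted CD41- replicate 1 or 3 also left 0, against 175 of 13396 and 169 of 13362 genes. Dropping depleted CD41- replicate 2 left 1 (256 of 13351 genes), and dropping control CD41- replicate 1 left 2 (312 of 13335 genes). The median was -0.24 without control CD41- replicate 2, the library with the largest share of ribosomal protein counts.

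Within the CD41+ fraction 0 of 80 genes passed, with 0.104% of all genes called (0.0372% higher and 0.0669% lower). At an unadjusted p under 0.05 stood 12 of 80, against 1646 of all 13448 genes, and 3 passed with DESeq2, against 266. The median log2 change was -0.21, with 62 of 80 values negative, and became 0.07 without control CD41+ replicate 1 and -0.44 without control CD41+ replicate 2. The smallest p-values belonged to Rpl13 (-0.55 ± 0.14, edgeR adjusted p = 0.164) and Rps27l (0.83 ± 0.22, adjusted p = 0.169). All depleted below all control libraries were 12 genes, 15% of the family against 13.8% of all genes, a share near the background, and all above were 3 (Rpl13a, Rpl7l1 and Rps27l), against 13.2%.

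Whether the response differed between the fractions was tested as the difference of the 2 responses. In edgeR's test 0 of 80 genes passed, with 0% of all genes called. At an unadjusted p under 0.05 stood 0 of 80, against 825 of all 13448 genes, and 0 passed with DESeq2, against 35. The median difference, CD41+ minus CD41-, was 0.23 on the log2 scale, positive for 73 genes. It lay between 0.02 and 0.49 when single libraries were left out. The low values were 0.02 (control CD41+ replicate 2 dropped) and 0.03 (control CD41- replicate 2 dropped). The high one was 0.49 (control CD41+ replicate 1 dropped). Rpl38 (0.57 ± 0.33, adjusted p = 0.875) and Rpl35 (0.48 ± 0.30, adjusted p = 0.885) had the smallest p-values, so a larger fall in CD41- cells is not shown for any gene.

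Pairs of paralogs were compared as the share of the second gene in the pair's level per length, a choice made after their values were seen, so the shares are given as a description, with no test. Rps27l made up 7.41, 7.08 and 4.92% of the pair with Rps27 in control CD41- and 7.92 and 12.5% in control CD41+ libraries. After depletion it made up 15.1, 13.3 and 18.0% in CD41- and 27.2, 20.8 and 18.9% in CD41+ libraries. All 6 depleted libraries were above all 5 controls. The ratio of the 2 genes was 2.61-fold higher after depletion (log2 1.38).

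Rpl22l1 is the paralog of Rpl22, and in mice the Rpl22 protein is known to hold down Rpl22l1 expression. It made up 77.8, 75.2 and 73.9% of the pair in control CD41- and 79.9 and 72.8% in control CD41+ libraries. That it was the larger part in control mice rests on the transcripts chosen, of 2051 bases for Rpl22 and 552 for Rpl22l1. In counts, Rpl22 and Rpl22l1 stood at 1735 and 1632, 2847 and 2318, and 1965 and 1494 in control CD41- libraries. In control CD41+ libraries they stood at 1947 and 2079, and at 1510 and 1089. After depletion Rpl22l1 made up 84.2, 81.6 and 87.0% in CD41- and 83.7, 83.8 and 88.0% in CD41+ libraries, again all above all controls. The ratio was 1.76-fold higher after depletion. The single genes did not pass, with averaged log2 changes of 0.41 ± 0.21 for Rpl22l1 (edgeR adjusted p = 0.279) and -0.38 ± 0.17 for Rpl22 (adjusted p = 0.221).

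The ratio of Rps4l to Rps4x was 1.79-fold higher, from 0.533 to 1.18% of the pair in controls to 1.18 to 1.55%, and 5 of 6 depleted libraries were above all controls. Rps4l is an annotated pseudogene with 24 to 219 counts per library, and the sharing of its reads with Rps4x was not tested. The ratio of Rpl7l1 to Rpl7 was 1.44-fold higher, and 3 of 6 depleted libraries were above all controls. Rpl3l, Rpl10l and Rpl39l had 11, 0 and 24 counts in all, too few to compare.

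**Figure D5:**
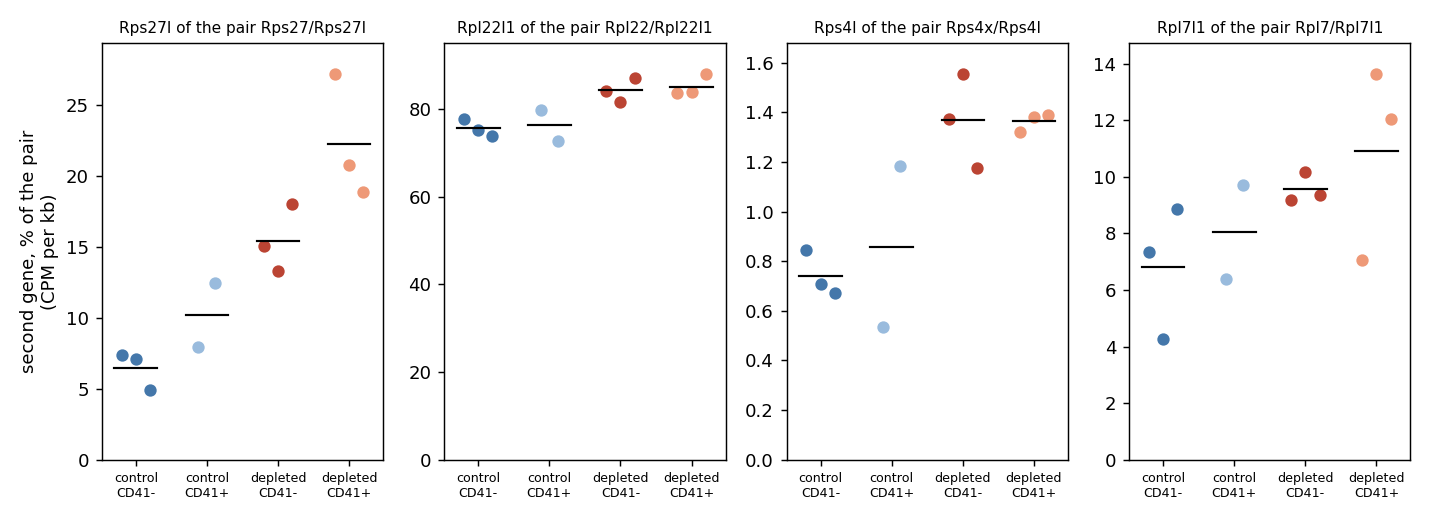
Share of the second gene in the summed CPM per kb of each of 4 paralog pairs (vertical axes, percent, from 0, each panel with its own scale) in the 4 groups; points are libraries and lines group means. For Rps27l and Rpl22l1 all 6 depleted libraries lie above all 5 control libraries.

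No ribosomal protein gene passed the test between CD41+ and CD41- cells. In control mice 0 of 80 passed, with 2.62% of all genes called (1.58% higher and 1.04% lower). At an unadjusted p under 0.05 stood 2 of 80, against 2543 of all 13448 genes. With DESeq2 or limma voom 0 passed, against 994 and 205 of all genes. The median log2 difference, CD41+ minus CD41-, was -0.21. It was -0.47 when control CD41+ replicate 1 was dropped and -0.04 when control CD41- replicate 2 was. It was -0.03 when control CD41+ replicate 2 was, the library rich in neutrophil transcripts. With no overlap, 2 genes, Rpl21 among them, were lower in CD41+ cells (against 17.5% of all genes) and 0 genes of the family were higher (17.4%). Rps21 (-0.60 ± 0.28, edgeR adjusted p = 0.255) and Rpl36 (-0.42 ± 0.19, adjusted p = 0.260) had the smallest p-values. Rps21, a small-subunit protein, measured 373, 638 and 444 CPM in CD41- libraries and 402 and 237 CPM in CD41+ libraries, so the groups overlapped.

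In depleted mice 0 of 80 passed, with 0.193% of all genes called (0.0669% higher and 0.126% lower). At an unadjusted p under 0.05 stood 1 of 80, against 1234 of all 13448 genes, and 0 passed with DESeq2, against 204. The median difference was -0.01. It was -0.13 when depleted CD41+ replicate 1 was dropped and 0.09 when depleted CD41+ replicate 2 was. With no overlap, 4 genes were lower in CD41+ cells (Rpl13, Rpl36 and Rps28 among them, against 9.32% of all genes) and Rpl7l1 was higher (8.35%). Rps27l had the smallest p (0.55 ± 0.19, edgeR adjusted p = 0.356), followed by Rpl35 (0.34 ± 0.20, adjusted p = 0.651). Averaged over both treatments 0 of 80 passed, with 5.38% of all genes called (2.73% higher and 2.65% lower). At an unadjusted p under 0.05 stood 3 of 80, against 3103 of all 13448 genes, and 0 passed with DESeq2, against 1441. The median was -0.11. Over all libraries 0 genes of the family were without overlap in either direction (1.49% of all genes higher, 1.81% lower). Dropping control CD41+ replicate 1 moved it to -0.22, and dropping replicate 2 of either control group to -0.02. Rps27l had the smallest p (0.36 ± 0.15, edgeR adjusted p = 0.161).

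The stalk proteins Rplp0, Rplp1 and Rplp2 were all lower on average after depletion, by log2 values of -0.42, -0.57 and -0.40, of which Rplp0 passed. Rplp1 was the most abundant of the stalk per length and ran from 1515 to 2607 CPM in control CD41- to 801 to 1469 CPM in depleted CD41+ libraries. Rpl5, Rpl11 and Rpl23, which bind MDM2 when ribosome assembly fails, did not pass, with averaged log2 changes of -0.11, -0.29 and -0.48. Of 4 genes of the p53 branch 0 passed, with log2 changes of -0.33 for Mdm2, -0.59 for Cdkn1a, 0.14 for Trp53 and 0.31 for Mdm4.

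Of a list of 12 genes, Rps14 and others mutated in Diamond-Blackfan anaemia, 12 had a negative averaged change (median -0.29, range -0.65 to -0.05), and Rps14, Rps7 and Rps19 passed. In the whole family 71 of 80 were negative with a median of -0.34 and 13.8% passed as lower, and of all genes tested 50.8% were negative and 2.73% passed as lower. In CD41+ cells 9 of the 12 were negative, at a median of -0.20.

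Ribosomal proteins with other symbols had 1 of 6 lower on average, against 2.73% of all genes called lower, and a median of -0.38. The 1 was Fau, the source of the small-subunit protein eS30, which fell by 0.73 ± 0.12 (edgeR adjusted p = 0.00299), from 569 to 886 CPM in controls to 374 to 466 CPM, with no overlap. Rps3a1 (-0.37), Rack1 (-0.23), Rps27rt (-0.40) and Rpl36al (0.15) did not pass.

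Other mRNAs of the TOP class did not share one direction. Of 14, 2 rose, 1 fell and 11 did not pass on average, with a median of -0.03. Of all genes tested, 3.60% were called higher and 2.73% lower. Eif3f, a subunit of an initiation factor, fell by 0.68 ± 0.11 (edgeR adjusted p = 0.00334), whereas Npm1, a nucleolar protein that helps assemble ribosomes, rose by 0.68 ± 0.14 (adjusted p = 0.0117) and Hnrnpa1, an RNA-binding splicing factor, by 0.61 ± 0.13 (adjusted p = 0.0172). Of 13 genes of mTOR and LARP1 control and 8 chaperones of ribosomal proteins, 0 and 0 passed on average, with Larp1 at 0.70 (adjusted p = 0.111) and Bccip at 0.48 (adjusted p = 0.0709) closest.

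Mitochondrial ribosomal proteins, which build the separate ribosome of mitochondria, had 9 of 77 tested genes higher and 0 lower on average (median 0.32). The cytosolic set had 1 higher and 11 lower (median -0.34), and of all genes 3.60% were called higher and 2.73% lower. The mitochondrial set held 0.498 to 0.652% of counts in control and 0.633 to 0.768% in depleted libraries. Mrps15 (0.71 ± 0.13, edgeR adjusted p = 0.00694) and Mrps31 (0.78 ± 0.20, adjusted p = 0.0339) were among the 9. The difference between the 2 sets was not tested.

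The genes of the family are short and many have near-identical processed copies in the genome. Of the 80, 60 have -ps entries in the table, 279 in all, and these held 15299 counts, 0.480% of the 3186151 counts of the family. Copies that carry other names were not counted, and reads shared between a gene and its copies were not measured. Among the 18 genes with neither a -ps entry nor a paralog, 3 fell on average after depletion and 1 in CD41- cells. Of all genes tested, 2.73% were called lower on average and 0.892% in CD41- cells. For Rpl35 and Rpl23a, 66.2% and 62.3% of exon bases overlap a gene on the opposite strand, so that with an unstated strand setting their values are uncertain. The 40 genes with the shorter transcripts had a median averaged depletion change of -0.37 and the 40 with the longer ones -0.30.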

How the data were processed

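Per the labels' protocols, cDNA was primed at the poly-A tail, extended by template switching and amplified in 17 cycles, and the tagmented libraries were indexed in 12 more. The deposited values are raw counts per gene made by the authors with cutadapt, STAR and HTSeq 0.6.1p1 on the mouse build GRCm38 (mm10), per the submitters' processing notes. For the strand setting, the annotation release and reads with several matches, nothing is given in the sources used here.

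Symbols came from GENCODE M21 for 49326 of 49585 entries. The filter filterByExpr (10 counts at least, 15 in total) kept 13448 genes, among them all 80 of the family. Counts were scaled by TMM and fitted over all 4 groups with edgeR 4.0.16 (quasi-likelihood, robust) in R 4.3.3, without covariates, since the labels give no batch. The 7 comparisons were each adjusted by Benjamini-Hochberg at 0.05 over all genes tested. Standard errors were derived from the F statistic and the fold change. Alternatives were RLE factors, library size alone, scaling without the family, no filter, a fit without robust, DESeq2 1.42.0, limma voom 3.58.1, only the groups compared, genes without -ps entries or a paralog, and each library left out. The edgeR procedure was tested on simulated data.

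The symbols Rps3a1, Rpl36al and Fau fall outside the rule for members and are given apart. Levels per length use one transcript per gene, principal in APPRIS where marked. Sequences are from RefSeq (GRCm38.p6), and of the 80 genes 59 matched. Among those with no entry were Rpl17, Rpl21, Rpl23a, Rpl29, Rpl3, Rpl30, Rpl32, Rpl36, Rpl7, Rpl8, Rplp1, Rps14, Rps20, Rps27a, Rps29 and Rps4l. Some genes are not reported here by name and are left out of the plots of single genes, though they count in all totals.

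Members and lists were chosen with earlier results of these data known. Named were the genes called in each comparison (over 10 called, the 5 largest rises and the 5 largest falls), the 2 smallest p where none was called, the 5 highest and 5 lowest per length, the 5 most and 3 least variable, the 5 nearest the count minimum on either side, paralog pairs, stalk, MDM2-binding and anaemia genes, up to 4 of each other list by smallest p, and the 5 genes ranked most like the family's share of counts. Outside this rule, and chosen after their values were seen, are the other falls of the averaged response, members with a positive change in both fractions or without overlap, Mrps31 and Rps27rt, and the comparison of paralog ratios. Intervals cover counting error only, and are too narrow even for that, since PCR reads without molecular identifiers are not independent molecules. Each library pools 3 mice, so p-values measure the spread between pools. Drawing used matplotlib 3.10.9 in Python 3.11.15.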

Additional observations from a re-analysis of the deposited data

How the results depend on the processing

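The counts of 0 in the comparisons by CD41 and in the difference of responses held under every alternative run. For depletion in CD41- cells the count of 4 became 15 with no filter, 11 with DESeq2, 8 with limma voom, 9 with only the groups compared and 1 of 18 among genes without pseudogene entries or a paralog, and 0 to 7 with single libraries left out. In CD41+ cells the count of 0 became 1 with no filter and 3 with DESeq2, and stayed at 0 with each library left out. For the averaged response the count of 12 (851 of 13448) became 22 with no filter (1336 of 25098) and 18 with DESeq2 (1407 of 13448). It was 16 with limma voom (1037 of 13448) and 3 among the 18 genes. It was 10 with RLE factors (849), and 11 with library size alone (802) or with scaling without the family (870). With single libraries of the groups of 3 left out it was 4 to 23, while 370 to 1060 of all genes were called. The causes were not tested beyond the smaller sets and fewer samples these settings imply.

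Direction was kept in every alternative run for the 26 gene results recomputed (the called genes and those of smallest p) and the 4 paralog ratios; other named genes were not recomputed. Medians near 0 did change sign: in CD41+ depletion from -0.21 to 0.07 without control CD41+ replicate 1, and between CD41 fractions of depleted mice, where -0.01 became -0.13 to 0.09 over the alternatives. Library size alone, in place of TMM, moved the median of all genes in the CD41 comparison of control mice to -0.15 from -0.03. Leaving out a control CD41+ library leaves a lone sample, assumed to vary like the other groups. No paired analysis was run, because the labels give the groups no shared replicate numbers. The titles number the samples in one series in which CD41- and CD41+ alternate, and no label says that neighbouring numbers share mice. The CD41+ comparison rests on 2 control libraries, and its shallowest library held 0.974 M counts; without that library the count in CD41+ cells was also 0.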
